A study of Mus musculus with 26 samples.

Results

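Of 47730 features counted in 26 libraries, 66 genes had reads at an appreciable level in tumour cells of T-cell-competent mice and almost none in tumour cells of T-cell-depleted mice or in culture. The members were chosen by the measured values themselves. A gene was kept if its mean level was below 1 CPM (reads of the gene scaled to a library total of 1000000) in the cultured line and in both sorted fractions of depleted tumours, and at least 5 CPM in both fractions of IgG control tumours. These 66 genes were 0.138% of all features and 0.685% of the 9635 genes that met the IgG control part of the rule. Because this contrast chose the genes, their levels in depleted, IgG control and cultured cells are given as a description, with no test.

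The cells were E-A14, a mouse mammary tumour line that carries Her2, grown in a mammary fat pad of host mice of strain FVB/N aged 6 to 8 weeks. Depleted mice received anti-CD4 and anti-CD8a antibodies, 100 µg of each 2 times per week, and IgG control mice received rat IgG2a and rat IgG2b at the same dose, both starting 2 weeks before implantation. Tumours reached their end point at day 20 in the depleted mice and at day 47 in the IgG control mice, with 6 mice per treatment, so treatment and day of collection cannot be told apart. After removal of dead cells and of cells with CD90, CD105 or CD45, Her2-positive cells were sorted into EpCAM-negative and EpCAM-positive fractions, giving 6 libraries in each of 4 tumour groups, and 2 libraries came from unimplanted cultured cells. In bulk RNA, fewer cells that make a transcript and less of it per cell cannot be told apart.

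The word "only" holds for means and not for every library. In 62 of the 66 genes all 12 IgG control libraries lay above all 12 depleted and both culture libraries. The 4 exceptions were Plce1, Reck, Epha3 and Scube3. The rule chose the genes by these same values, so this separation largely follows from it. No share over other genes was computed. Scrg1 and Csmd1 had no read in any of the 14 depleted and culture libraries. At the other end, 10 members had at least 1 read in every depleted library and 36 reached 1 CPM in at least 1 depleted or culture library. Summed over the 66 genes, the level was 14.1 to 24.5 CPM in EpCAM-negative and 16.02 to 21.6 CPM in EpCAM-positive libraries of depleted tumours, 1624 to 3430 CPM and 2424 to 4048 CPM in the corresponding IgG control libraries, and 8.24 to 8.66 CPM in culture.

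By their known products, 24 are secreted or matrix proteins, 7 are receptors, 6 belong to interferon-inducible or cell-autonomous defence, 13 are signalling proteins, cytoskeletal proteins or enzymes, 8 are channels, transporters or other membrane proteins, and 8 were given no role. Interferons, made among other cells by activated T cells, switch on GTPases that attack intracellular pathogens and raise antigen presentation in the cells that sense them. Matrix proteins such as elastin and the collagens build the scaffold outside cells, and carcinoma cells that lose EpCAM and other epithelial surface proteins often make such mesenchymal proteins. The lectin pathway of complement, bone morphogenetic proteins and osteocalcin, also found among the members, are best known from blood plasma, embryonic patterning and bone.

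The promoters of 4 members are shown because these genes carry the results on the EpCAM-positive fraction, on the shared level and on the interferon group; the first 3 are the members with the most reads that had an entry in the RefSeq promoter table, and Ifi47 was added after its values were seen. They run from 250 bases before to 50 bases after the annotated start (RefSeq, GRCm38.p6), 5′ to 3′ on the strand of the gene, and capitals mark matches to the motifs searched. 1500015O10Rik is listed there as Ecrg4.
Igfbp5 (chr1:72874816-72875115, minus strand): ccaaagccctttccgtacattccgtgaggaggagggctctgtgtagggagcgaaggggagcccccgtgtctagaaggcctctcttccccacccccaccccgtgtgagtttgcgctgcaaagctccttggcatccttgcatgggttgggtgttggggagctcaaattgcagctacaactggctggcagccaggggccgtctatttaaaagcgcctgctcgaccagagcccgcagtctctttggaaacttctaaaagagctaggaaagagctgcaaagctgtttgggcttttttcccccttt
1500015O10Rik (chr1:43730352-43730651, plus strand): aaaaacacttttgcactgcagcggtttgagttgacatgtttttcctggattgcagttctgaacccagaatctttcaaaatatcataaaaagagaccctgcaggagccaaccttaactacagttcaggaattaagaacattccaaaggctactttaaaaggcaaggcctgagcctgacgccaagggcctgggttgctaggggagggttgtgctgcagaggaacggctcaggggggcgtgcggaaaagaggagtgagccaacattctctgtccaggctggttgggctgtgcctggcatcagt
Lifr (chr15:7129322-7129621, plus strand): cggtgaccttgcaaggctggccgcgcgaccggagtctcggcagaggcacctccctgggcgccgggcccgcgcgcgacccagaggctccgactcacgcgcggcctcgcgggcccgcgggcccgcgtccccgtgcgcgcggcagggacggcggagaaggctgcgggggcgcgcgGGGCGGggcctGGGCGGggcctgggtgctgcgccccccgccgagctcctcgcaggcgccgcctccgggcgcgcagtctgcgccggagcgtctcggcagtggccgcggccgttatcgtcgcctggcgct
Ifi47 (chr11:49076337-49076636, plus strand): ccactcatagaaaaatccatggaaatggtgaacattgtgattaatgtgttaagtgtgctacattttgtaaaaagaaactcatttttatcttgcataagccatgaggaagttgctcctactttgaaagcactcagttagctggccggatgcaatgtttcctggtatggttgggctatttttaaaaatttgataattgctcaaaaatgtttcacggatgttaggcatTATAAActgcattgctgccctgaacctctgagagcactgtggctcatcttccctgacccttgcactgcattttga
An entry was found for 47 of the 66 members, 2 of them under a newer symbol. The capitals in the Lifr sequence are 2 GC boxes (GGGCGG) and those in the Ifi47 sequence are a TATA box (TATAAA). Searched on both strands, TATAAA was in 14.9% of the 47 member promoters and 14.2% of 27025 promoters, CCAAT in 27.7% and 37.9%, GGGCGG in 31.9% and 35.9%, and the AP-1 site TGANTCA in 4.26% and 7.93%. The interferon-related patterns were rare in both sets: TTCNNNGAA, the GAS element, was in 4.26% of member promoters and 8.47% of all, and a spaced pair of GAAA, a pattern like the interferon-stimulated response element, in 4.26% and 3.49%. CACCTG, the E-box bound by repressors of epithelial genes, was in 17.0% and 20.0%, and the cyclic AMP response element TGACGTCA in 4.26% and 1.88%. Each share of 4.26% is 2 of the 47 member promoters. The 2 with TTCNNNGAA were Agt and Epha3, and those with the spaced GAAA pair were Scube3 and Gfra1. None of these is in the interferon and defence group. No motif overlapped another in the 4 sequences shown. A match is a run of letters and not evidence of binding.

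**Figure D1:**
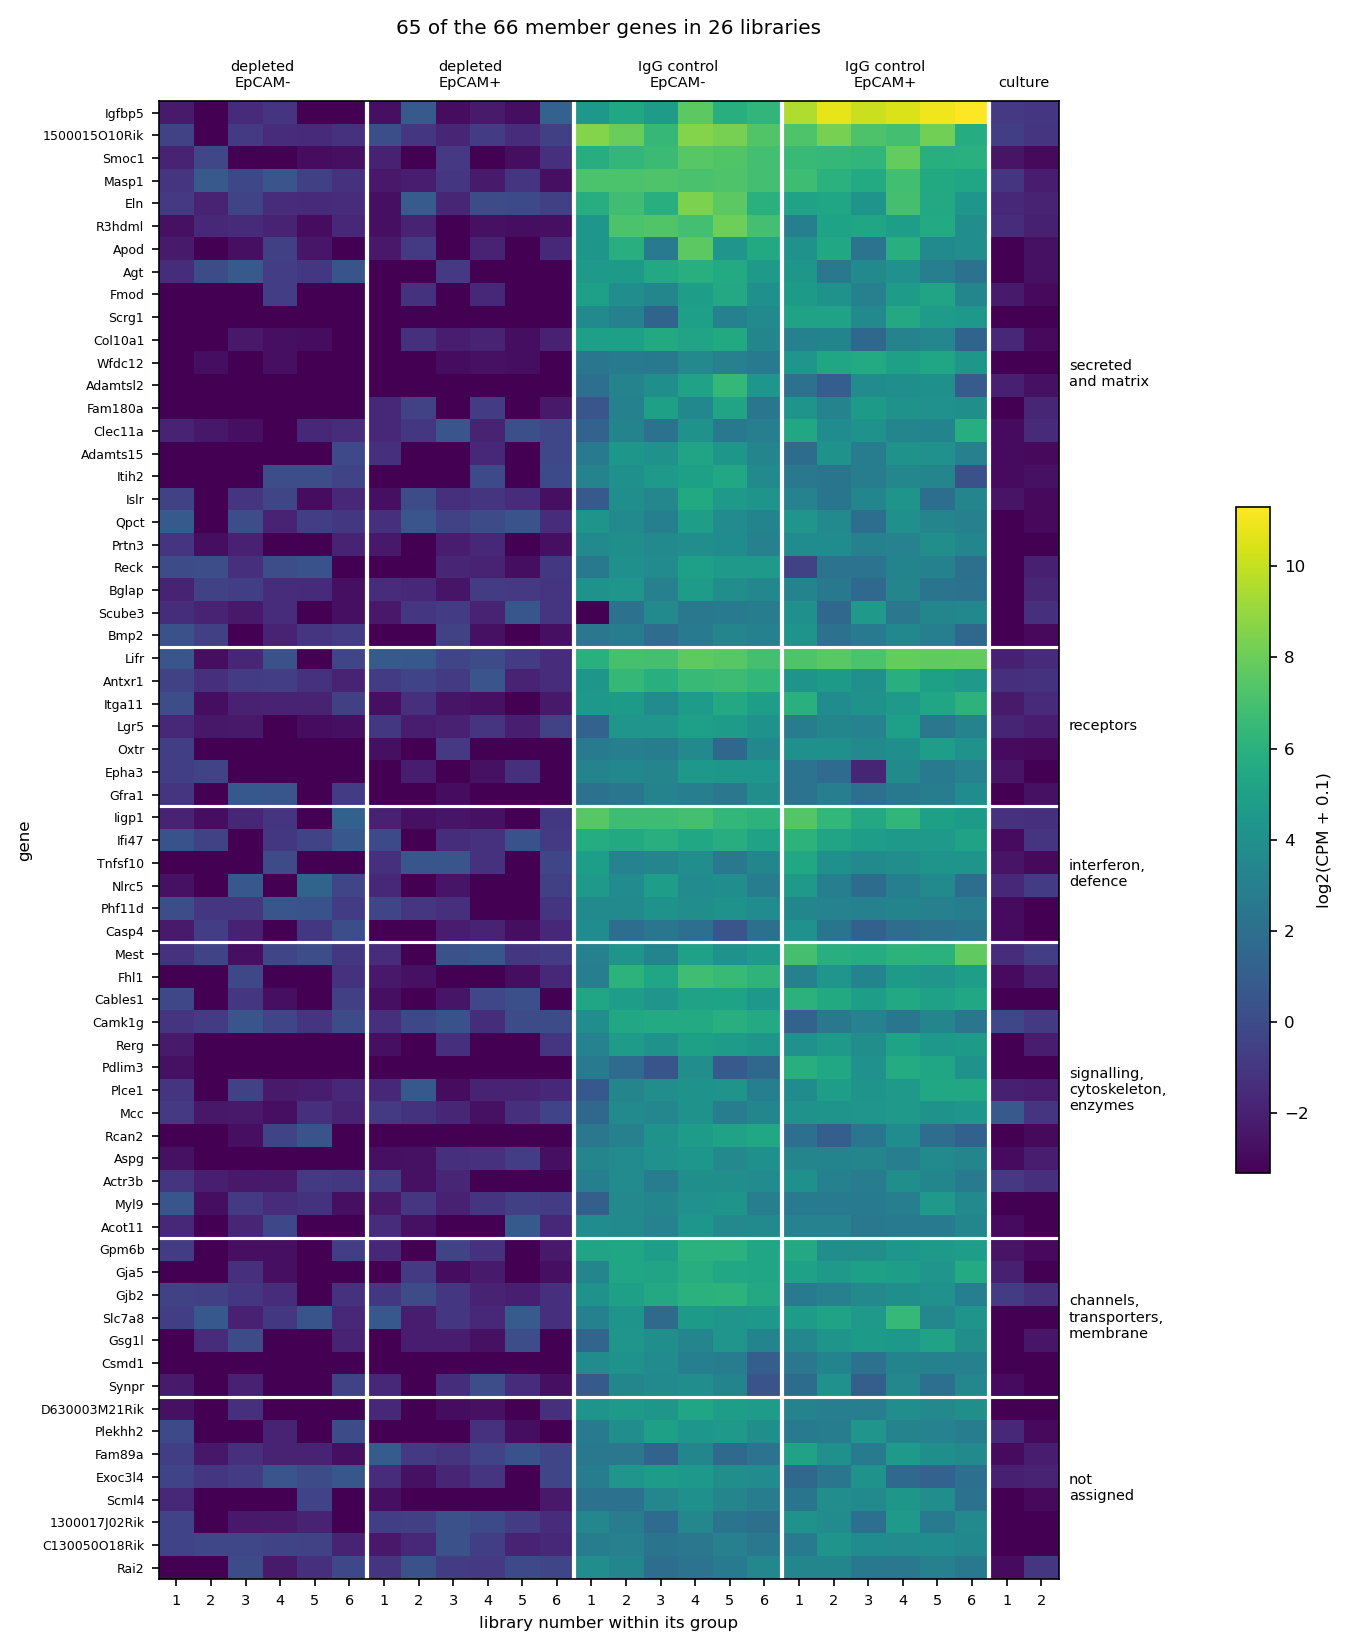
Level of 65 of the 66 members (rows, grouped by role) in each of the 26 libraries (columns, by group and library number), as log2(CPM + 0.1) on the colour scale. The 12 IgG control columns are bright in nearly every row, while the depleted and culture columns are dark, with scattered low values.

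Igfbp5, which encodes a secreted binding protein of insulin-like growth factors, took 29.8% of the summed IgG control means of the 66 genes. CPM is not corrected for transcript length, so values below compare libraries of the same gene and not genes with each other. Its level was 0 to 0.373 CPM (median 0.0547) in EpCAM-negative and 0.0391 to 2.33 CPM (median 0.0803) in EpCAM-positive libraries of depleted tumours, and 21.8 to 196.5 CPM (median 52.0) in EpCAM-negative and 760.7 to 2526 CPM (median 1609) in EpCAM-positive libraries of IgG control tumours. It had 0.440 and 0.399 CPM in the 2 culture libraries. Every IgG control library stood above every depleted library, and the EpCAM-positive IgG control libraries stood above every EpCAM-negative one. Between the fractions of IgG control tumours the log2 fold change, EpCAM-negative over EpCAM-positive, was -4.33 ± 0.51 (SE, adjusted p = 2.9e-07). All tests of this contrast are edgeR quasi-likelihood tests with Benjamini-Hochberg adjustment over 16637 features.

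That fraction contrast was not fixed by the rule and could be tested for all 66 members. In IgG control tumours 22 members differed between fractions, 16 higher and 6 lower in EpCAM-negative cells, and 44 did not pass. This fit took the fractions as unpaired, because replicate numbers are not stated to mark the same tumour. Calls given below are from this fit unless a block is named. The share called was 33.3%, against 27.9% of all 16637 features tested. For the higher calls it was 24.2% of members against 13.3% of all features, and for the lower calls 9.09% against 14.5%. The median log2 fold change was 0.39 over the members and -0.01 over all features, and the median absolute log2 fold change was 0.88 and 0.31. All features tested are of all levels, while the rule held members at 5 CPM or more in both IgG control fractions. These shares and medians are therefore not matched for level. In 6 members all EpCAM-negative libraries lay above all EpCAM-positive ones, as in 3.43% of all features, and in 5 all lay below, as in 10.9% of all features (14.3% either way). With replicate numbers as a block, 42 of the 66 members passed, against 34.6% of all features, and 21 of the 22 calls were kept.

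**Figure D2:**
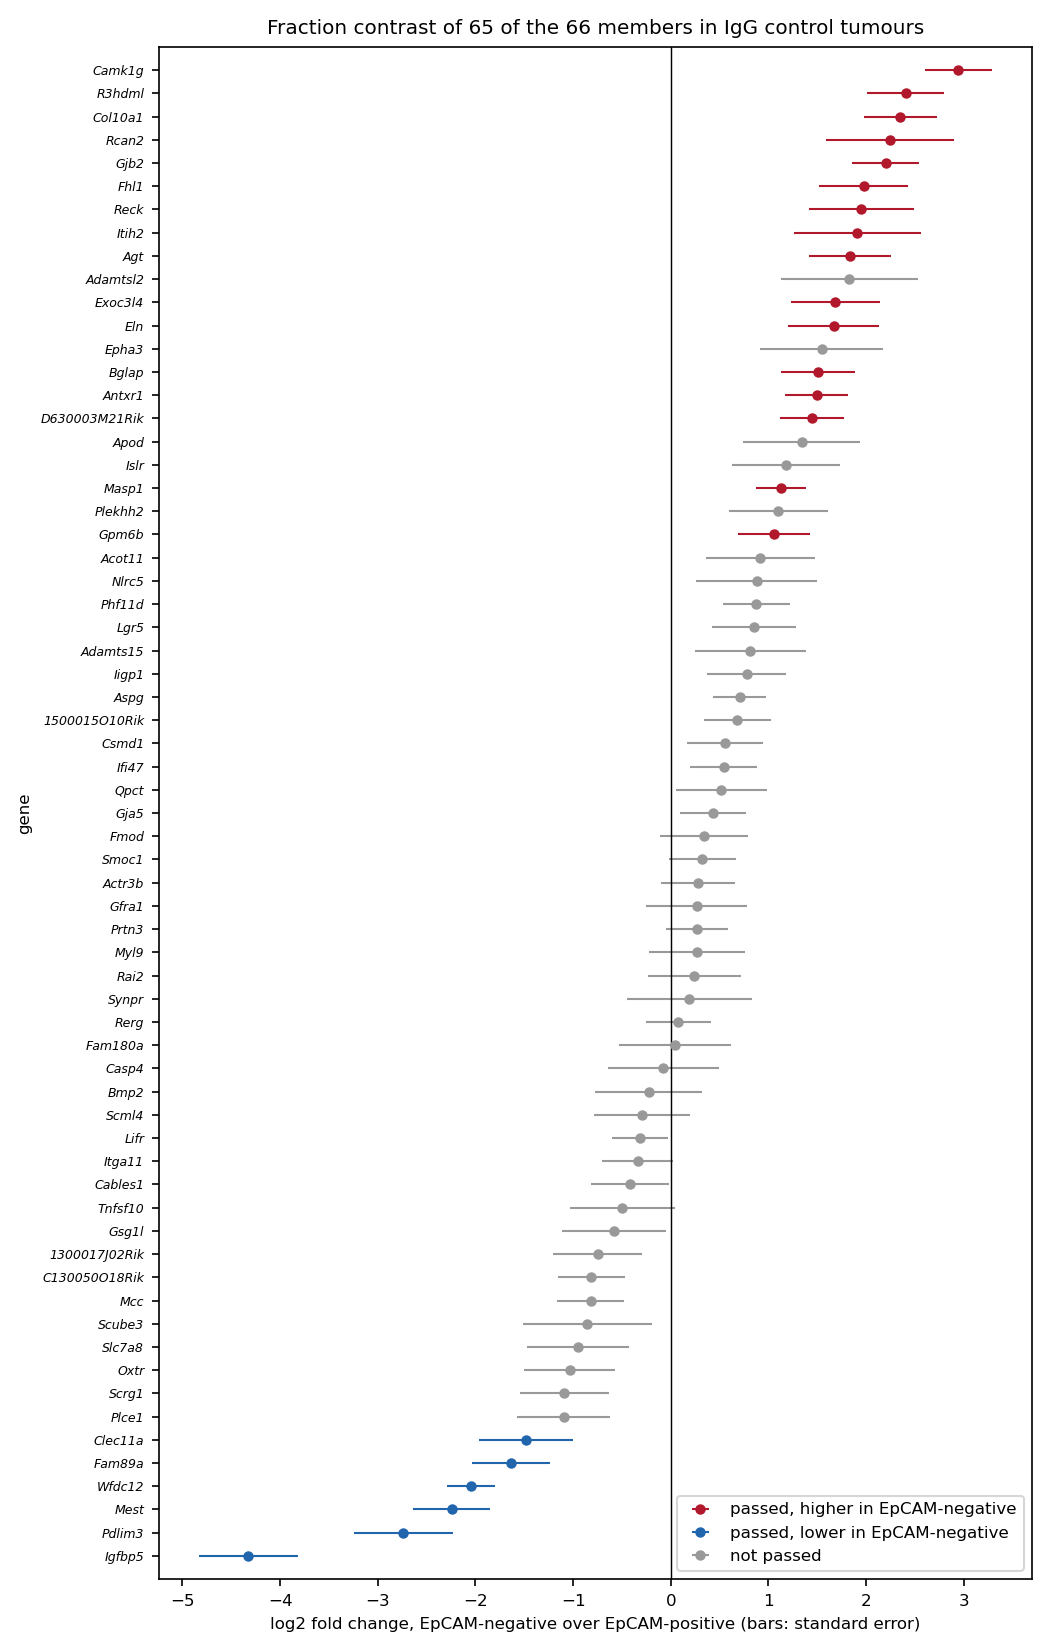
Log2 fold change of EpCAM-negative over EpCAM-positive cells in IgG control tumours for 65 of the 66 members, with the standard error from edgeR as bars. Red points (16) and blue points (6) passed an adjusted p of 0.05, and grey points (43) did not; the values run from -4.33 for Igfbp5 to 2.95 for Camk1g.

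Among the 24 secreted and matrix members, 8 were higher in EpCAM-negative IgG control cells, 3 were lower and 13 did not pass. R3hdml, Col10a1, Reck, Itih2, Agt, Eln, Bglap and Masp1 made up the higher set, and Igfbp5, Wfdc12 and Clec11a the lower set. R3hdml, a gene for a predicted secreted protein with a cysteine-rich domain, was at 0.0417 to 0.251 CPM (median 0.186) in EpCAM-negative and 0 to 0.171 CPM (median 0.0515) in EpCAM-positive libraries of depleted tumours. It was at 20.5 to 270.1 CPM (median 134.8) in EpCAM-negative and 7.95 to 48.6 CPM (median 31.7) in EpCAM-positive libraries of IgG control tumours, and at 0.257 and 0.143 CPM in the 2 culture libraries. All 12 IgG control libraries were above all depleted ones, while the 2 fractions of the IgG control tumours overlapped at their ends. The log2 fold change of EpCAM-negative over EpCAM-positive IgG control cells was 2.41 ± 0.39 (SE, adjusted p = 3.5e-05).

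Col10a1 encodes the collagen of hypertrophic cartilage. Its level was 0 to 0.1004 CPM (median 0.0209) in EpCAM-negative and 0 to 0.285 CPM (median 0.136) in EpCAM-positive libraries of depleted tumours, 10.6 to 48.0 CPM (median 34.3) in EpCAM-negative and 2.53 to 10.9 CPM (median 8.93) in EpCAM-positive libraries of IgG control tumours, and 0.220 and 0.0285 CPM in the 2 culture libraries. The fractions of IgG control tumours met only at the lowest EpCAM-negative library, number 6 with 10.6 CPM. The log2 fold change was 2.35 ± 0.37 (SE, adjusted p = 2.5e-05). Bglap, the gene of osteocalcin in bone, did not pass 0.622 CPM in any depleted or culture library and averaged 16.2 ± 6.62 CPM over the EpCAM-negative and 6.25 ± 2.81 CPM over the EpCAM-positive libraries of IgG control tumours (SD, n = 6 each). Its log2 fold change was 1.51 ± 0.38 (SE, adjusted p = 0.00367); its near-identical neighbour Bglap2 can share reads with it.

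Eln, which encodes elastin, ran 0.178 to 0.703 CPM (median 0.266) in EpCAM-negative and 0.0512 to 1.71 CPM (median 0.727) in EpCAM-positive libraries of depleted tumours. It reached 55.1 to 338.0 CPM (median 87.7) in EpCAM-negative and 18.9 to 127.6 CPM (median 36.3) in EpCAM-positive libraries of IgG control tumours, and 0.220 and 0.171 CPM in the 2 culture libraries. In both fractions the highest library was number 4, with 338.0 CPM in the EpCAM-negative and 127.6 CPM in the EpCAM-positive fraction. Eln was higher in EpCAM-negative IgG control cells, with a log2 fold change of 1.67 ± 0.46 (SE, adjusted p = 0.00783).

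Masp1, a serine protease that starts the lectin pathway of complement, was the steadiest member in EpCAM-negative IgG control cells, with a coefficient of variation (CV) of 8.10%. It ran 0.319 to 1.60 CPM (median 0.694) in EpCAM-negative and 0.0518 to 0.391 CPM (median 0.112) in EpCAM-positive libraries of depleted tumours. In IgG control tumours it ran 120.9 to 152.4 CPM (median 140.9) in the EpCAM-negative and 38.1 to 116.4 CPM (median 56.5) in the EpCAM-positive fraction, without overlap, and there were 0.367 and 0.114 CPM in the 2 culture libraries. The log2 fold change in IgG control tumours was 1.13 ± 0.25 (SE, adjusted p = 0.00131). Agt, the angiotensinogen gene, did not pass 1.61 CPM in any depleted or culture library and ran 23.5 to 56.5 CPM (median 35.0) in EpCAM-negative and 4.31 to 20.99 CPM (median 10.1) in EpCAM-positive libraries of IgG control tumours. Its fractions did not overlap either, and the log2 fold change was 1.84 ± 0.42 (SE, adjusted p = 0.0016).

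Reck, a membrane-anchored inhibitor of matrix metalloproteases, averaged 18.8 ± 8.77 CPM over the EpCAM-negative and 5.35 ± 3.16 CPM over the EpCAM-positive libraries of IgG control tumours (SD, n = 6 each). Its highest depleted library, at 1.21 CPM, lay above its lowest IgG control library, EpCAM-positive number 1 with 0.634 CPM. The log2 fold change between the fractions was 1.95 ± 0.54 (SE, adjusted p = 0.00713). Itih2, a heavy chain that attaches to hyaluronan, averaged 22.7 ± 12.6 CPM over the EpCAM-negative and 6.60 ± 3.52 CPM over the EpCAM-positive libraries of IgG control tumours (SD, n = 6 each), with a log2 fold change of 1.91 ± 0.65 (SE, adjusted p = 0.0288). The Itih2 call was lost, with the same sign, when any 1 of 4 libraries was left out, EpCAM-negative number 4 or 5 or EpCAM-positive number 2 or 6.

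Wfdc12, a small protease inhibitor of the whey acidic protein type, went the other way together with Igfbp5. In depleted tumours no library passed 0.0547 CPM. In IgG control tumours it ran 5.25 to 11.6 CPM (median 6.52) in EpCAM-negative and 19.4 to 49.0 CPM (median 35.4) in EpCAM-positive libraries, without overlap, and both culture libraries had no read. The log2 fold change was -2.05 ± 0.25 (SE, adjusted p = 6.2e-07). Clec11a, a secreted bone growth factor also called osteolectin, averaged 7.88 ± 5.42 CPM over the EpCAM-negative and 24.8 ± 19.1 CPM over the EpCAM-positive libraries of IgG control tumours (SD, n = 6 each). It was lower in EpCAM-negative cells, with a log2 fold change of -1.48 ± 0.48 (SE, adjusted p = 0.022), and the call was lost without EpCAM-negative library 3 or without EpCAM-positive library 1 or 6.

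The other secreted members were present in both fractions of IgG control tumours without a difference that passed in the unpaired fit. With replicate numbers as a block, Scrg1, Apod, Adamtsl2, Adamts15 and Qpct among them passed. 1500015O10Rik, whose RefSeq name is Ecrg4 and which encodes the precursor of a secreted peptide, ran 0 to 0.601 CPM (median 0.293) in EpCAM-negative and 0.195 to 1.02 CPM (median 0.445) in EpCAM-positive libraries of depleted tumours. It ran 85.7 to 386.0 CPM (median 283.4) in EpCAM-negative and 53.1 to 316.8 CPM (median 151.7) in EpCAM-positive libraries of IgG control tumours, and 0.550 and 0.371 CPM in the 2 culture libraries. Its log2 fold change between fractions was 0.68 ± 0.34 (SE, adjusted p = 0.15). Smoc1, a calcium-binding matrix protein related to SPARC, did not pass 0.755 CPM in any depleted or culture library and ran 55.6 to 182.2 CPM (median 110.2) in EpCAM-negative and 57.8 to 233.7 CPM (median 81.6) in EpCAM-positive libraries of IgG control tumours. The corresponding log2 fold change was 0.33 ± 0.34 (SE, adjusted p = 0.54). Scrg1, a small secreted protein, had no read in depleted or cultured cells and ran 2.504 to 29.99 CPM (median 10.5) in EpCAM-negative and 12.5 to 46.0 CPM (median 30.4) in EpCAM-positive libraries of IgG control tumours.

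Apod, a lipid-binding lipocalin, and Adamtsl2, a glycoprotein of microfibrils, were carried by single libraries. EpCAM-negative library 4 held 56.2% of the summed CPM of Apod in its group, with 193.8 CPM, and EpCAM-negative library 5 held 50.8% of that of Adamtsl2, with 86.3 CPM. Apod averaged 57.4 ± 69.3 CPM over the EpCAM-negative and 25.0 ± 20.6 CPM over the EpCAM-positive libraries of IgG control tumours (SD, n = 6 each) and Adamtsl2 28.3 ± 30.3 CPM over the EpCAM-negative and 8.83 ± 6.88 CPM over the EpCAM-positive libraries of IgG control tumours (SD, n = 6 each). Fmod, a proteoglycan that binds collagen fibrils, had no read in 9 of the 12 depleted libraries and ran 10.5 to 45.1 CPM (median 21.9) in EpCAM-negative and 8.24 to 37.7 CPM (median 21.7) in EpCAM-positive libraries of IgG control tumours.

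Bmp2, a bone morphogenetic protein, averaged 6.84 ± 2.24 CPM over the EpCAM-negative and 8.71 ± 5.91 CPM over the EpCAM-positive libraries of IgG control tumours (SD, n = 6 each), and Adamts15, a metalloprotease that cleaves proteoglycans, 19.04 ± 10.9 CPM over the EpCAM-negative and 11.9 ± 6.50 CPM over the EpCAM-positive libraries of IgG control tumours (SD, n = 6 each). Their log2 fold changes between fractions were -0.22 ± 0.55 (SE, adjusted p = 0.82), for Bmp2, and 0.81 ± 0.57 (SE, adjusted p = 0.32), for Adamts15. Neither passed. Fam180a, Islr, Qpct, Prtn3 and Scube3 complete the group. Prtn3, a serine protease of neutrophil granules, was even across IgG control libraries at 8.24 to 15.5 CPM (median 13.2) in EpCAM-negative and 8.36 to 14.7 CPM (median 12.1) in EpCAM-positive libraries of IgG control tumours. Scube3 had no read in EpCAM-negative IgG control library 1.

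**Figure D3:**
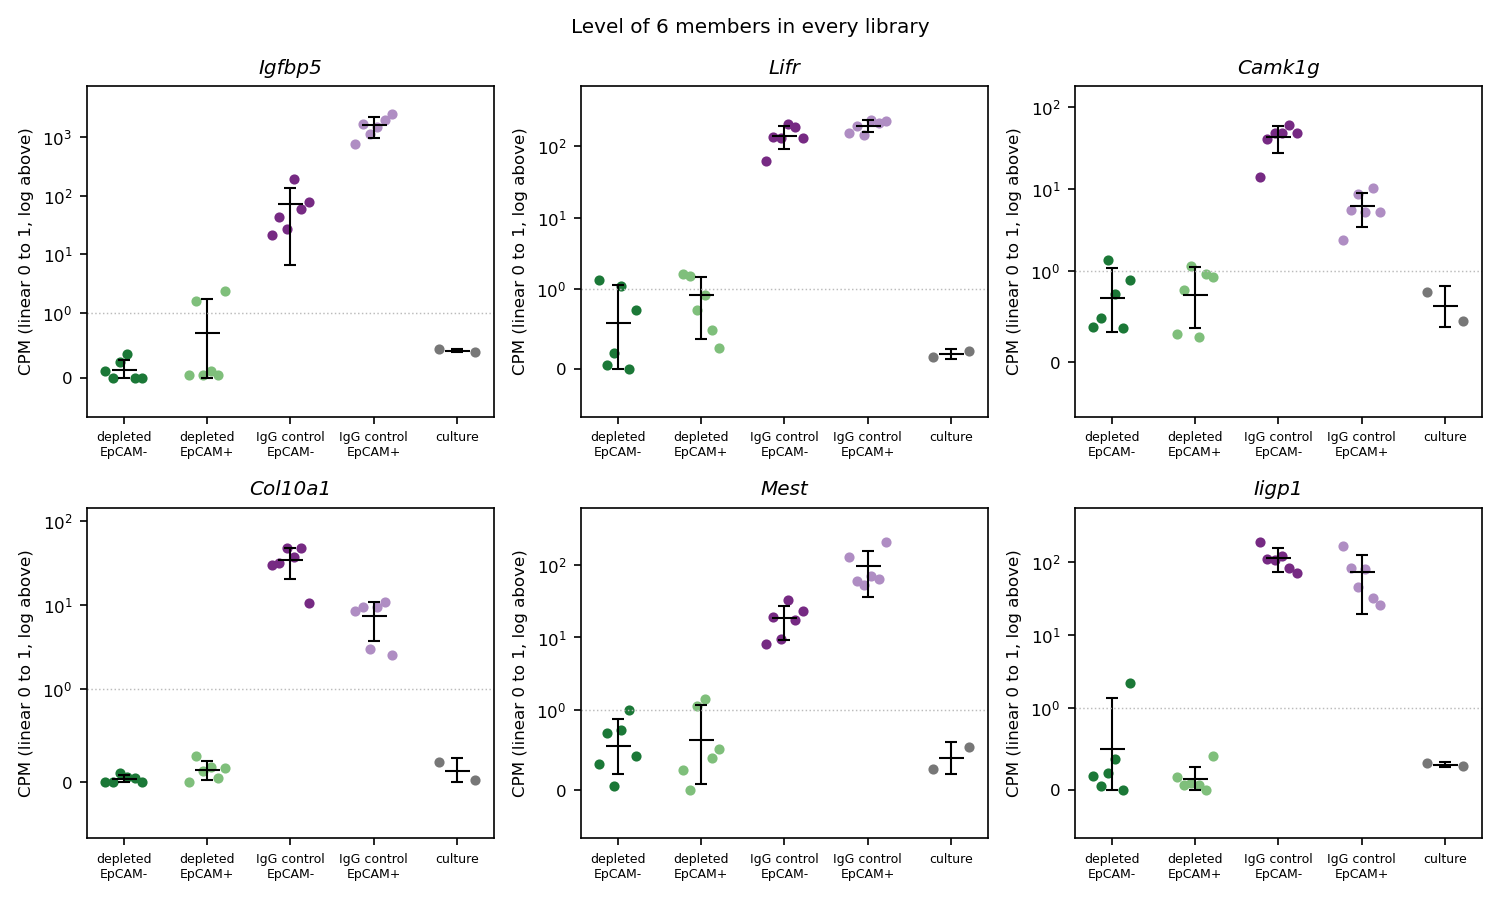
CPM of 6 members in every library (points), with the mean and SD of each group (lines; the lower bar stops at 0). The vertical axis is linear up to 1 CPM, marked by the dotted line, and logarithmic above it. Igfbp5 and Mest are higher in EpCAM-positive IgG control cells, Camk1g and Col10a1 in EpCAM-negative ones, and Lifr and Iigp1 overlap between the fractions.

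Of the 7 receptors, 1 passed in the fraction contrast. Antxr1, a cell-surface receptor for anthrax toxin that binds collagen, ran 0.159 to 0.601 CPM (median 0.418) in EpCAM-negative and 0.177 to 1.37 CPM (median 0.490) in EpCAM-positive libraries of depleted tumours. It ran 21.02 to 105.6 CPM (median 84.4) in EpCAM-negative and 15.9 to 58.8 CPM (median 24.0) in EpCAM-positive libraries of IgG control tumours and had 0.294 and 0.342 CPM in the 2 culture libraries. The EpCAM-positive IgG control libraries were low except number 4, with 58.8 CPM. Its log2 fold change was 1.49 ± 0.33 (SE, adjusted p = 0.001).

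Lifr, the receptor chain for leukaemia inhibitory factor, was near the ceiling of the rule in depleted cells. Its level was 0 to 1.37 CPM (median 0.472) in EpCAM-negative and 0.259 to 1.64 CPM (median 0.836) in EpCAM-positive libraries of depleted tumours, 62.0 to 201.5 CPM (median 130.7) in EpCAM-negative and 143.3 to 227.0 CPM (median 199.7) in EpCAM-positive libraries of IgG control tumours, and 0.147 and 0.228 CPM in the 2 culture libraries. The fractions of the IgG control tumours overlapped, with a log2 fold change of -0.31 ± 0.29 (SE, adjusted p = 0.47). Itga11, a collagen-binding integrin chain, had no depleted or culture library above 0.984 CPM and ran 13.0 to 46.0 CPM (median 25.8) in EpCAM-negative and 13.97 to 69.2 CPM (median 31.7) in EpCAM-positive libraries of IgG control tumours. Lgr5, a receptor for R-spondins, averaged 19.6 ± 9.85 CPM over the EpCAM-negative and 11.8 ± 9.22 CPM over the EpCAM-positive libraries of IgG control tumours (SD, n = 6 each), Oxtr, the oxytocin receptor, 7.99 ± 3.36 CPM over the EpCAM-negative and 18.1 ± 5.75 CPM over the EpCAM-positive libraries of IgG control tumours (SD, n = 6 each), and Epha3, an ephrin receptor, 15.8 ± 6.21 CPM over the EpCAM-negative and 5.98 ± 4.20 CPM over the EpCAM-positive libraries of IgG control tumours (SD, n = 6 each). The Oxtr libraries of the 2 fractions did not overlap, although its log2 fold change was -1.03 ± 0.47 (SE, adjusted p = 0.1). Gfra1, a co-receptor of glial cell line-derived neurotrophic factor, averaged 7.83 ± 3.95 CPM over the EpCAM-negative and 7.20 ± 3.48 CPM over the EpCAM-positive libraries of IgG control tumours (SD, n = 6 each).

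None of the 6 interferon and defence members passed in the fraction contrast, with a median log2 fold change of 0.66. That fit did not pair the fractions. With replicate numbers as a block Iigp1, Ifi47, Tnfsf10 and Phf11d passed, but the numbers are not stated to mark the same tumour. Iigp1, a GTPase that coats the vacuoles of intracellular parasites, ran 0 to 2.23 CPM (median 0.182) in EpCAM-negative and 0 to 0.414 CPM (median 0.0675) in EpCAM-positive libraries of depleted tumours, and 70.6 to 184.2 CPM (median 107.7) in EpCAM-negative and 25.4 to 166.4 CPM (median 61.9) in EpCAM-positive libraries of IgG control tumours. Culture held 0.330 and 0.285 CPM of Iigp1. The fractions overlapped, with library 1 highest in both, and the log2 fold change was 0.78 ± 0.41 (SE, adjusted p = 0.17). Ifi47, a GTPase of the same family, did not pass 1.49 CPM in any depleted or culture library and ran 33.9 to 57.7 CPM (median 49.9) in EpCAM-negative and 24.1 to 69.0 CPM (median 31.4) in EpCAM-positive libraries of IgG control tumours; its log2 fold change was 0.54 ± 0.34 (SE, adjusted p = 0.26).

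Nlrc5, the transactivator of MHC class I genes, reached 2.54 CPM in depleted EpCAM-negative library 5 and averaged 16.5 ± 7.74 CPM over the EpCAM-negative and 9.74 ± 7.31 CPM over the EpCAM-positive libraries of IgG control tumours (SD, n = 6 each). Tnfsf10, the death ligand TRAIL, averaged 13.1 ± 8.31 CPM over the EpCAM-negative and 20.4 ± 10.8 CPM over the EpCAM-positive libraries of IgG control tumours (SD, n = 6 each), Phf11d 14.8 ± 2.56 CPM over the EpCAM-negative and 8.82 ± 1.18 CPM over the EpCAM-positive libraries of IgG control tumours (SD, n = 6 each), and Casp4, an inflammatory caspase, 5.34 ± 4.20 CPM over the EpCAM-negative and 6.19 ± 5.23 CPM over the EpCAM-positive libraries of IgG control tumours (SD, n = 6 each). The Phf11d libraries of the fractions did not overlap, although its log2 fold change was 0.88 ± 0.34 (SE, adjusted p = 0.0587). In EpCAM-positive library 1 all 6 genes were at their highest of that group, at a median of 2.19 times the group mean. EpCAM-negative library 1 was the highest for 3 of the 6, Iigp1, Tnfsf10 and Casp4, and library 3 for the other 3.

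Other genes of the interferon-gamma response gave the setting of these members. Of 27 such genes tested that were not members, 21 had lower and 2 had higher levels in depleted than in IgG control cells of the EpCAM-negative fraction, with a median log2 fold change of -2.13, and 1 was higher and 22 lower in EpCAM-positive cells, with a median of -1.91. Over all 16637 features, 21.9% were higher and 23.2% lower in the first comparison, 17.6% and 22.4% in the second (45.1% and 40% called either way), with medians of 0.03 and -0.02. Of 23 antiviral interferon-stimulated genes, none of them a member, 20 had lower and 0 higher levels in the depleted EpCAM-negative fraction and 18 lower and 0 higher in the depleted EpCAM-positive fraction. Irf1, a transcription factor of that response, was also read in depleted cells and averaged 90.3, 71.3, 201.8 and 199.1 CPM, in the order depleted EpCAM-negative, depleted EpCAM-positive, IgG control EpCAM-negative and IgG control EpCAM-positive. The summed level of the 30 listed non-member interferon-gamma genes was 1416 CPM in IgG control EpCAM-positive library 1, against 697 to 934 CPM in the other 5. The 24 antiviral genes were not high in library 1: their sum was 375.7 CPM in IgG control EpCAM-negative library 1, against 471.5 to 569.1 CPM in the other 5, and 398.6 CPM in EpCAM-positive library 1, against 390.3 to 492.2 CPM.

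Of the 13 signalling, cytoskeletal and enzyme members, Camk1g, Fhl1 and Rcan2 were higher and Mest and Pdlim3 lower in EpCAM-negative IgG control cells. Camk1g, a calcium/calmodulin-dependent kinase, ran 0.375 to 1.36 CPM (median 0.617) in EpCAM-negative and 0.273 to 1.17 CPM (median 0.864) in EpCAM-positive libraries of depleted tumours. It ran 14.1 to 60.7 CPM (median 48.8) in EpCAM-negative and 2.40 to 10.4 CPM (median 5.45) in EpCAM-positive libraries of IgG control tumours, without overlap, and 0.771 and 0.456 CPM in the 2 culture libraries. Its log2 fold change of 2.95 ± 0.35 (SE, adjusted p = 3.1e-07) was the largest positive one of the 66. Fhl1, a LIM-domain protein of muscle and cytoskeleton, ran 7.44 to 111.0 CPM (median 72.1) in EpCAM-negative and 8.66 to 29.1 CPM (median 19.6) in EpCAM-positive libraries of IgG control tumours, with EpCAM-negative library 1 as low as the EpCAM-positive ones, and a log2 fold change of 1.97 ± 0.45 (SE, adjusted p = 0.00164).

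Mest, an imprinted gene for an enzyme of the alpha/beta hydrolase family, ran 0.0502 to 1.001 CPM (median 0.568) in EpCAM-negative and 0 to 1.42 CPM (median 0.458) in EpCAM-positive libraries of depleted tumours, 8.04 to 33.0 CPM (median 18.4) in EpCAM-negative and 53.1 to 209.0 CPM (median 66.8) in EpCAM-positive libraries of IgG control tumours, and 0.257 and 0.542 CPM in the 2 culture libraries. The fractions of IgG control tumours did not overlap, and the log2 fold change was -2.24 ± 0.39 (SE, adjusted p = 8.9e-05). Pdlim3, which binds alpha-actinin at actin bundles, had 1 read in the 12 depleted libraries and none in culture. It ran 1.29 to 14.8 CPM (median 3.16) in EpCAM-negative and 16.5 to 56.5 CPM (median 40.7) in EpCAM-positive libraries of IgG control tumours, with a log2 fold change of -2.74 ± 0.50 (SE, adjusted p = 0.00034), and its EpCAM-negative mean of 5.06 CPM was the closest of all members to the lower limit. Rcan2, an inhibitor of calcineurin, averaged 22.5 ± 14.8 CPM over the EpCAM-negative and 5.13 ± 4.38 CPM over the EpCAM-positive libraries of IgG control tumours (SD, n = 6 each), with a log2 fold change of 2.25 ± 0.66 (SE, adjusted p = 0.0134).

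Cables1, a substrate of cyclin-dependent kinases, had no depleted library above 1.11 CPM, ran 19.3 to 39.3 CPM (median 31.9) in EpCAM-negative and 29.7 to 68.0 CPM (median 44.1) in EpCAM-positive libraries of IgG control tumours, and had no read in culture. Rerg, a Ras-like protein regulated by oestrogen, Plce1, a phospholipase, Mcc, Actr3b, Myl9, Acot11 and Aspg had log2 fold changes from -1.10 for Plce1 to 0.92 for Acot11, and none passed. Mcc was the member closest to the upper limit in the low groups, with 1.61 and 0.371 CPM in the 2 culture libraries.

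Among the 8 channels, transporters and membrane proteins, Gjb2 and Gpm6b were higher in EpCAM-negative IgG control cells. Gjb2, a connexin of gap junctions, did not pass 0.911 CPM in any depleted or culture library and ran 17.5 to 69.4 CPM (median 44.7) in EpCAM-negative and 6.07 to 16.9 CPM (median 9.81) in EpCAM-positive libraries of IgG control tumours, without overlap. The log2 fold change of the gene was 2.20 ± 0.34 (SE, adjusted p = 2e-05). Gja5, another connexin, did not pass, with 37.4 ± 14.9 CPM over the EpCAM-negative and 30.7 ± 10.1 CPM over the EpCAM-positive libraries of IgG control tumours (SD, n = 6 each) and a log2 fold change of 0.43 ± 0.34 (SE, adjusted p = 0.38). Gpm6b, a proteolipid of the cell membrane, averaged 45.3 ± 15.8 CPM over the EpCAM-negative and 24.1 ± 11.1 CPM over the EpCAM-positive libraries of IgG control tumours (SD, n = 6 each), with a log2 fold change of 1.06 ± 0.37 (SE, adjusted p = 0.0317); the call was lost without any 1 of EpCAM-negative libraries 4 and 5 and EpCAM-positive libraries 2, 3, 4 and 5.

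Slc7a8, an amino acid transporter, ran 3.25 to 25.2 CPM (median 19.3) in EpCAM-negative and 10.7 to 90.3 CPM (median 25.4) in EpCAM-positive libraries of IgG control tumours. Slc7a8 was high in EpCAM-positive library 4 alone, with 90.3 CPM. Gsg1l, Synpr and Csmd1, known from neurons, were between 7.66 and 20.9 CPM as group means in IgG control cells, and none passed.

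Of the 8 members with no role given, D630003M21Rik and Exoc3l4 were higher and Fam89a lower in EpCAM-negative IgG control cells. D630003M21Rik averaged 26.8 ± 7.56 CPM over the EpCAM-negative and 10.9 ± 3.37 CPM over the EpCAM-positive libraries of IgG control tumours (SD, n = 6 each), without overlap, with a log2 fold change of 1.45 ± 0.33 (SE, adjusted p = 0.00158). Exoc3l4 ran 6.89 to 25.8 CPM (median 17.2) in EpCAM-negative and 2.35 to 17.2 CPM (median 3.56) in EpCAM-positive libraries of IgG control tumours, where EpCAM-positive library 3 held 49.3% of the summed CPM of its group. Its log2 fold change was 1.69 ± 0.46 (SE, adjusted p = 0.0066). Fam89a averaged 5.29 ± 2.79 CPM over the EpCAM-negative and 18.1 ± 9.59 CPM over the EpCAM-positive libraries of IgG control tumours (SD, n = 6 each), with a log2 fold change of -1.64 ± 0.40 (SE, adjusted p = 0.00293). Plekhh2, Scml4, 1300017J02Rik, C130050O18Rik and Rai2 did not pass.

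Genes of the matrix and skeletal lists other than the members were also lower in depleted than in IgG control cells in more cases than they were higher. Of 17 tested cartilage and bone genes, 11 were lower and 3 higher in EpCAM-negative cells, and 12 lower and 1 higher in EpCAM-positive cells. Over all features tested, 23.2% were lower and 21.9% higher in EpCAM-negative cells, and 22.4% and 17.6% in EpCAM-positive cells. Alpl, the alkaline phosphatase of mineralising tissue, averaged 1.01, 2.37, 193.7 and 418.4 CPM in depleted EpCAM-negative, depleted EpCAM-positive, IgG control EpCAM-negative and IgG control EpCAM-positive cells. Its mean in culture was 1.01 CPM. It was left out of the 66 because its depleted and culture means reached 1 CPM. Alpl was named after these values were seen, so they are a description and no test of this gene is given. Dmp1, a matrix protein of osteocytes, averaged 1.08, 1.87, 74.3 and 56.0 CPM in the same order. In that order Col2a1, the main collagen of cartilage, averaged 0.142, 2.45, 0.977 and 48.3 CPM, Col9a1 1.33, 16.5, 47.8 and 55.4 CPM, and Ibsp, the bone sialoprotein gene, 0.0273, 0, 2.24 and 1.10 CPM. Bglap2 averaged 0.0732, 0.0715, 4.78 and 1.57 CPM. Some listed genes went the other way. Phex averaged 15.4, 3.47, 2.38 and 0.858 CPM and Col11a2 2.65, 3.39, 1.01 and 2.12 CPM in that order. Runx2, at 32.3, 23.0, 30.9 and 41.9 CPM, did not rise in EpCAM-negative cells. Acan, Matn1, Sp7, Cnmd and Mepe had no group mean above 0.0577 CPM.

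Of the other collagens, 18 of 36 tested were lower and 4 higher in depleted EpCAM-negative cells and 23 lower and 3 higher in depleted EpCAM-positive cells. For matrix glycoproteins and proteoglycans it was 29 lower and 5 higher of 51, and 25 lower and 5 higher. Proteases and their inhibitors were split, with 20 lower and 20 higher of 56, and 19 lower and 17 higher. Ligands and antagonists of the Wnt, BMP and TGF-beta families had 14 lower and 9 higher of 36, and 16 lower and 6 higher. Complement genes other than Masp1 had 5 lower and 8 higher of 16, and 4 lower and 6 higher. Other imprinted genes had 6 lower and 7 higher of 21, and 3 lower and 6 higher. The shares over all features tested were 23.2% lower and 21.9% higher in EpCAM-negative cells, and 22.4% and 17.6% in EpCAM-positive cells.

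Marker genes of fibroblasts also differed between the treatments. Of 17 fibroblast markers tested, 11 were lower and 0 higher in depleted EpCAM-negative cells and 9 lower and 0 higher in depleted EpCAM-positive cells. Over all features tested, 23.2% were lower and 21.9% higher in the first comparison, and 22.4% and 17.6% in the second. The sum of the 19 listed fibroblast markers was 881 to 967 CPM and 726 to 928 CPM in EpCAM-negative and EpCAM-positive depleted libraries, 2038 to 5207 CPM and 1964 to 4200 CPM in IgG control libraries, and 675 to 684 CPM in culture. Dcn, the gene of the matrix proteoglycan decorin, averaged 6.67, 1.99, 1196 and 1892 CPM in depleted EpCAM-negative, depleted EpCAM-positive, IgG control EpCAM-negative and IgG control EpCAM-positive cells. In the same order Col1a1, a chain of type I collagen, averaged 36.3, 43.2, 1405 and 485.4 CPM, Lum 0.729, 1.499, 24.8 and 5.92 CPM, Pi16 0.107, 0.255, 7.71 and 1.00 CPM, and Podn 0.0454, 0.854, 7.43 and 2.499 CPM. Other markers did not rise in both fractions. Col1a2 averaged 20.4, 30.1, 12.3 and 38.7 CPM in that order, and Col3a1 31.9, 49.9, 144.6 and 46.2 CPM. Gsn, at 680.7, 571.8, 609.3 and 521.2 CPM, was not higher in IgG control cells. Dpt and Fap had no group mean above 0.235 CPM. Of 11 pericyte and smooth muscle markers tested, 3 were lower and 2 higher in depleted EpCAM-negative cells (median log2 fold change 0.62) and 7 lower and 2 higher in depleted EpCAM-positive cells (median -2.83). The 12 listed summed to 23.2 to 53.4 CPM and 110.0 to 205.6 CPM in depleted libraries, 519.0 to 1503 CPM and 422.6 to 941.1 CPM in IgG control libraries, and 20.2 to 26.9 CPM in culture. In the order above Pdgfrb averaged 11.3, 1.44, 969 and 399.99 CPM, and Acta2 10.8, 3.02, 55.0 and 46.1 CPM. Pdgfrb held most of the IgG control sums, which averaged 1036 and 715 CPM in EpCAM-negative and EpCAM-positive cells. Mcam averaged 4.63, 69.8, 4.85 and 222.0 CPM, Myh11 0.241, 0.0485, 0.122 and 8.91 CPM, and Tagln 2.75, 2.55, 4.67 and 7.60 CPM. Notch3, at 8.41, 81.4, 1.79 and 26.9 CPM, and Des, at 0.201, 0.166, 0.00456 and 0.0113 CPM, were lower in IgG control cells. Rgs5, Kcnj8 and Abcc9 had no group mean above 0.341 CPM. The 27 T and NK cell markers summed to 2.40 to 3.99 CPM in EpCAM-negative and 0.703 to 1.71 CPM in EpCAM-positive libraries of depleted tumours, 6.83 to 16.5 CPM and 2.68 to 12.6 CPM in IgG control libraries, without overlap in either fraction, and 2.40 to 6.27 CPM in culture. Among them Cd28 averaged 0.0697, 0.165, 7.71 and 3.66 CPM in the same order, and 1.59 CPM in culture. Trac averaged 2.04, 0.411, 2.77 and 1.32 CPM, and 1.78 CPM in culture. The other listed T and NK cell genes had no tumour group mean above 0.466 CPM, and Cd3e had 1 and 4 reads in all in the EpCAM-negative and EpCAM-positive IgG control libraries. The part of fibroblasts, pericytes, smooth muscle, T and NK cells in the members' levels was not tested. Total counts were 17559520 to 25601999 in depleted libraries and 26895429 to 38740143 in IgG control libraries, so depth did not overlap between the treatments; thinned to the smallest total, 64 of the 66 members met the rule.

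The members varied among IgG control libraries more than other genes of like level. Over the 6 libraries the median CV of the members came to 47.5% in the EpCAM-negative and 49.7% in the EpCAM-positive fraction. For all genes with a mean of at least 5 CPM it was 12.9% over 9865 genes and 13.9% over 10133 genes. Restricted to means of 5 to 50 CPM, it was 48.1% over 55 members against 15.3% over 5719 genes in EpCAM-negative cells, and 49.4% over 59 members against 16.4% over 5700 genes in EpCAM-positive cells. At the steady end were Masp1 and Phf11d in EpCAM-negative cells, with CVs of 8.10% and 17.3%, and Mcc and Phf11d in EpCAM-positive cells, with 11.2% and 13.4%. At the other end were Apod, with 120.7% in EpCAM-negative cells, and Exoc3l4, with 97.5% in EpCAM-positive cells.

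The same libraries were high or low for many members. In EpCAM-negative IgG control cells library 4 was the highest for 35 of the 66 members and library 1 the lowest for 35, with median levels of 1.44 and 0.545 times the group mean. In EpCAM-positive cells library 4 was the highest for 21 and library 3 the lowest for 26, where the median over members was 0.712 times the group mean in library 3. How often these libraries were the highest or lowest for other genes was not counted, so the counts are not read as a trait of the members. The interferon and defence members departed from this order. Library 1, where the secreted and matrix members were at a median of 0.445 times the group mean in EpCAM-negative cells, held the interferon members at 1.51 times; in EpCAM-positive library 1 these values were 1.02 and 2.19. All values are over 6 libraries per fraction and are a description of these libraries.

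**Figure D4:**
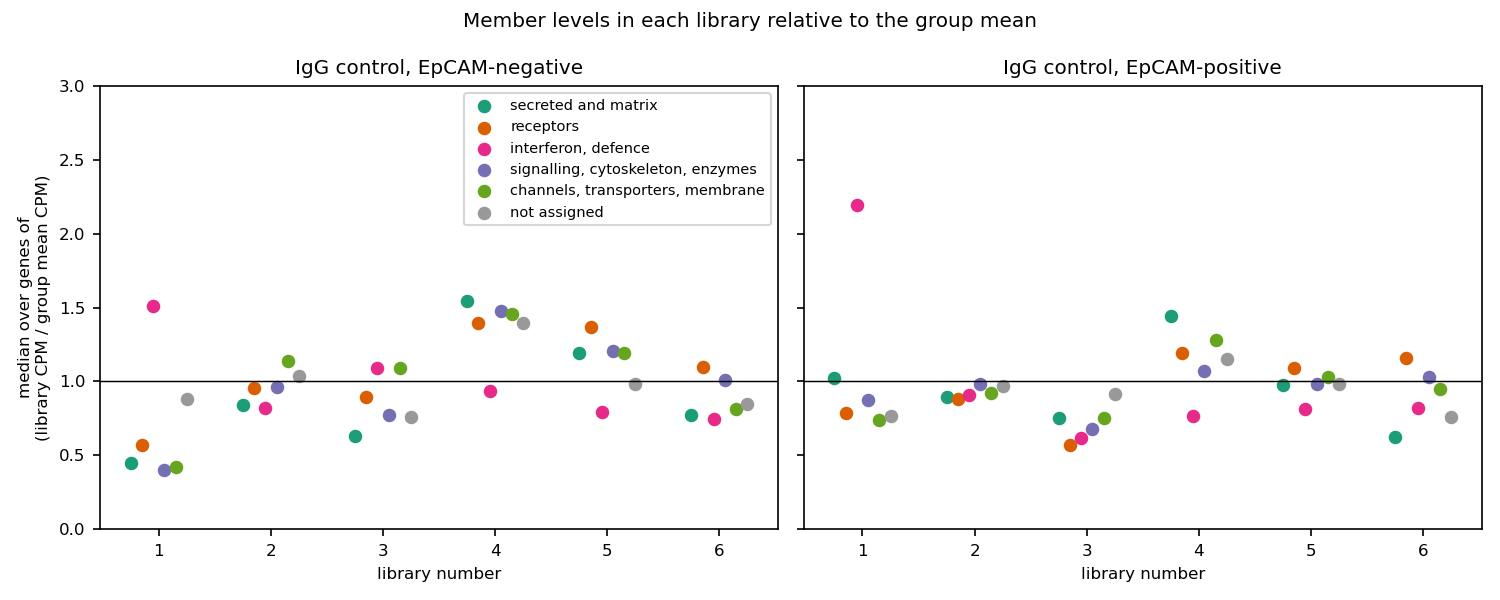
Median over the genes of each role of the level in a library divided by the mean of its group, for the 6 EpCAM-negative (left) and 6 EpCAM-positive (right) IgG control libraries; the line marks the group mean. Of the 6 roles the interferon and defence members are the highest in library 1 of both fractions, at 1.51 and 2.19, while the secreted and matrix members peak in library 4, at 1.54 and 1.44.

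In depleted tumours the members were at trace counts. Agt ran 0.273 to 1.61 CPM (median 0.733) in EpCAM-negative and 0 to 0.430 CPM (median 0) in EpCAM-positive depleted libraries, with 113 reads in the 12 libraries, while Masp1 had 129 and Fam89a 131 reads there. In no member did the fractions of depleted tumours separate without overlap, against 15.7% of all features, which are of all levels. The rule held both depleted means of a member below 1 CPM, where many libraries tie at 0. Nothing is read from this difference. Within the 12 depleted libraries only Camk1g, Lifr, Mest, Ifi47, Qpct and C130050O18Rik passed the filter on low counts. An edgeR fit of these libraries called 0 of the 6 and 34.4% of all 12698 features tested, and 0 of the 6 had an unadjusted p under 0.05. The fit of all 26 libraries gave 11 calls among the 66, against 28.5% of all features. DESeq2 gave 17, against 28.9% of all features it tested. The members entered the fit of all 26 libraries through their IgG control values, and none of the 11 passed the filter within the depleted libraries. Nothing is read from these calls. Whether the fraction contrast of a member differed between depleted and IgG control tumours was not tested.

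The limits of the rule cut through a continuous range. Just inside, Pdlim3, Rcan2 and Fam89a had their lower IgG control mean at 5.06, 5.13 and 5.29 CPM, and Mcc, Lifr and Exoc3l4 had their highest depleted or culture mean at 0.993, 0.932 and 0.865 CPM. Just outside, Ccl17, Gm26584 and Sgca had a lower IgG control mean of 4.90, 4.74 and 4.70 CPM, and Fam189a2, Hrct1 and Adamts5 a highest depleted or culture mean of 1.07, 1.11 and 1.12 CPM. Exons of 18 members overlap those of another gene in GENCODE M21, among them Mest with Copg2, Col10a1 with Nt5dc1, Gja5 with Gpr89 and Eln with Gm30003 on the opposite strand, and Islr with Islr2 and Ifi47 with Olfr56 on the same strand. The sources used here do not say whether reads were counted by strand, so reads of such pairs cannot be told apart.

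Epcam followed the sort within each treatment, but reads of genes of the removal markers remained. Epcam averaged 145.9 and 1.49 CPM in the EpCAM-negative fractions of depleted and IgG control tumours and 2469 and 1190 CPM in the EpCAM-positive ones. The rat Neu transgene of the line averaged 465.8 and 541.3 CPM in EpCAM-negative and EpCAM-positive depleted cells, 524.8 and 305.2 CPM in IgG control cells and 623.2 CPM in culture. Ptprc, the gene of CD45, averaged 5.03 and 4.51 CPM in depleted and 0.0508 and 0.769 CPM in IgG control fractions, EpCAM-negative first. Culture had no Ptprc read. Eng, the gene of CD105, averaged 1.74 and 1.29 CPM in depleted and 2.22 and 3.24 CPM in IgG control fractions, and 1.07 CPM in culture. Thy1, the gene of CD90, had no group mean above 0.0431 CPM. Why Ptprc differed between the treatments was not tested.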

How the data were processed

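RNA of sorted E-A14 tumour cells and of cultured cells was sequenced in 26 libraries after amplification of full-length cDNA. The values used are raw read counts per gene that the authors deposited as one table; per the submitters' processing notes, STAR, genome build mm9 and DESeq2 1.22.2 were used, and the sources used here give neither their roles nor the counting tool. The deposited normalised table was not used. CPM was computed here as count divided by the column total and multiplied by 1000000. Members were genes with a mean below 1 CPM in 3 low groups and at least 5 CPM in both IgG control groups. The fraction contrasts were fitted with edgeR 4.0.16 (R 4.3.3; TMM, filterByExpr by group, quasi-likelihood test, 1 coefficient per group, all 26 libraries, Benjamini-Hochberg over 16637 features, threshold 0.05), with code tested on simulated data; all 66 members entered, each through its IgG control values. Alternatives were other cutoffs, scalings and filters, DESeq2 1.42.0, fits of 1 treatment alone, a replicate block and leaving out each library.

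The members and the gene lists were chosen with earlier results of these data known. The roles, the interferon response pattern and the comparison of non-member list genes between treatments were chosen after values were seen. Named in full were the 20 members with the highest IgG control means, those with the 8 largest called fraction changes each way, members of the lists, the 3 most carried by 1 library, and genes next to the cutoffs; the other members are named to account for the set, except 1 that is counted among the 66 but not reported here by itself. Gene symbols come from GENCODE M21, which matched 47224 of 47729 Ensembl features. The groups came from the sample titles. Mice are separate within a group, and the table does not show how many PCR cycles each library had. Replicate libraries of a group correlated at 0.965 to 0.990. A count of 3, the floor of detection, corresponded to 0.0774 to 0.171 CPM per library.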

Additional observations from a re-analysis of the deposited data

Results flagged for a closer look

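The 66 members, their summed CPM and that sum without Igfbp5 were looked at in the 2 IgG control fractions of 6 libraries each, and 19 of these 136 sets of values, all of single genes, had 1 library set apart from the other 5 by more than 0.625 of the range (Dixon's 95% limit, which chance passes in about 1 of 20). No cause was tested.

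Library 4 of the EpCAM-negative IgG control cells stood apart for Igfbp5 at 196.5 CPM (others 21.8 to 78.3), Apod at 193.8 CPM (others 6.53 to 56.7) and Pdlim3 at 14.8 CPM (others 1.29 to 6.31). Library 4 of the EpCAM-positive IgG control cells stood apart for Smoc1 at 233.7 CPM (others 57.8 to 95.5), Eln at 127.6 CPM (others 18.9 to 45.5), Slc7a8 at 90.3 CPM (others 10.7 to 33.9), Antxr1 at 58.8 CPM (others 15.9 to 31.6), Lgr5 at 30.3 CPM (others 5.43 to 10.2) and Rcan2 at 13.7 CPM (others 1.97 to 5.22).

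Library 1 of the EpCAM-positive IgG control cells stood apart for Ifi47 at 69.0 CPM (others 24.1 to 37.2), Tnfsf10 at 41.9 CPM (others 12.3 to 18.7) and Casp4 at 16.6 CPM (others 2.20 to 5.13). Casp4 was also apart in EpCAM-negative library 1, at 13.5 CPM (others 1.36 to 5.24).

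In EpCAM-positive IgG control library 3, Plekhh2 was at 19.4 CPM (others 6.65 to 9.13) and Exoc3l4 at 17.2 CPM (others 2.35 to 5.24). In library 5 of that fraction, Oxtr was at 29.2 CPM (others 12.9 to 18.5) and Myl9 at 24.2 CPM (others 6.22 to 11.9), and in library 6 Gfra1 was at 13.7 CPM (others 4.08 to 7.53). Adamtsl2 was at 86.3 CPM in EpCAM-negative library 5 (others 3.91 to 34.6).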

How the results depend on the processing

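The rule gave 66 members, 23 with cutoffs of 0.5 and 10 CPM, 209 with cutoffs of 2 and 2.5 CPM, and 63 to 69 when 1 library was left out. The IgG control fraction contrast called 22 members, and 20 to 26 with 1 library left out (14 to 20 higher, 5 to 8 lower). DESeq2 called 21, of which 18 were shared, and 25.9% of all features it tested. A fit of the 12 IgG control libraries alone called 30 (20 higher, 10 lower) and 30.4% of all features, with the 22 among the 30. Of the 22 called, 17 were called in every alternative run and none reversed; Clec11a, Fhl1, Gpm6b, Itih2 and Rcan2 lost the call in at least 1. In depleted tumours 11 members were called, 17 with DESeq2 (8 lower), 7 to 11 with 1 library left out (3 to 7 higher, 2 to 5 lower), and 0 in the fit of the 12 depleted libraries, which tested 6 members (0 higher, 0 lower). Of all features tested, 28.5% were called in the main depleted contrast, 28.9% with DESeq2 and 34.4% in the fit of the 12 depleted libraries. None of the 11 was among those 6, and 0 members had fractions without overlap. Replicate numbers are not stated to mark the same tumour. Over all tested genes, same-numbered fractions correlated at 0.0497 to 0.172 in IgG control tumours, each best with its own number (4 of 6 over 0.1), and at 0.0175 to 0.0469 in depleted tumours, 3 of 6 best with their own. Over the 66 members they correlated at 0.262 to 0.606 in IgG control tumours, 5 of 6 best with their own number. With the numbers as a replicate block, 42 members passed in IgG control tumours (27 higher, 15 lower), 34.6% of all features did, and 21 of the 22 calls were kept. The calls gained included Iigp1, Ifi47, Tnfsf10 and Phf11d of the interferon and defence group. In depleted tumours 0 passed (0 higher, 0 lower) of 6 tested with the block, against 37.9% of all features. The cause of these moves was not tested, other than the fewer members tested in fits of depleted libraries. Depth limits the depleted values: 3 counts were 0.117 to 0.171 CPM there.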
